A study of Xenopus laevis with 12 samples.

Results

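The mitochondrial respiratory chain was examined across 3 dissected regions of the early Xenopus laevis embryo and the whole embryo. Its members were all probe sets whose only gene symbol, without the .L or .S ending, began with nduf, uqcr, cyc1, cycs or atp5, was sdha, sdhb, sdhc or sdhd, or began with cox followed by a digit from 4 to 8. By this rule 73 of the 15491 probe sets tested belonged to the chain. They stood for 56 genes, of 6504 with a probe set of their own when L and S copies are joined. Complex I had 26 probe sets for 22 genes, complex II 4 for 3 genes, complex III 7 for 5 genes, complex IV 16 for 11 genes and complex V 18 for 13 genes. The remaining members were cycs, the mobile electron carrier cytochrome c, and ndufaf7, an assembly factor of complex I, with 1 probe set each. All of these are nuclear genes, and the subunits encoded by the mitochondrial genome were not analysed here.

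Polyadenylated RNA of wild-type embryos at stage 15, an early neurula stage, was hybridised to 12 Affymetrix X. laevis arrays. The eye field (EF, titled eye primordia), the posterior neural plate (PNP), the lateral endoderm (LE) and the whole embryo had 3 arrays each. Each region array carried RNA of many pooled dissected pieces, the EF pieces included the mesendoderm beneath the eye field, and the methods state that triplicates came from different days and different females. No agent or transgene was used in any of these groups. A value is the log2 signal of a probe set on an array, and a difference of 1 on this scale is a 2-fold change.

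The respiratory chain passes electrons from NADH (complex I) and from succinate (complex II) through ubiquinone to complex III, then through cytochrome c to oxygen at complex IV. The proton gradient so formed drives ATP synthesis by complex V. Complex II is also an enzyme of the citric acid cycle, and it is the complex with no subunit encoded in mitochondrial DNA. Early frog embryos inherit their mitochondria from the egg and contain yolk as their store of fuel.

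The dissections were checked against marker genes. The level of a marker list on an array was the log2 of its summed linear signal, so the brightest probe sets weigh most. For 17 probe sets for eye field transcription factors it lay between 10.22 and 10.51 in EF and between 6.52 and 8.42 elsewhere. Markers of the posterior plate, 7 probe sets, lay between 9.56 and 9.77 in PNP and between 5.08 and 8.36 elsewhere. Endoderm markers, 8 probe sets for sox17a, sox17b.1, gata5 and gata6, lay between 9.05 and 9.31 in LE and between 8.76 and 9.09 in whole embryos, against 5.50 to 6.17 in EF and PNP. LE also carried epidermal markers at the whole-embryo level, 12.45 to 12.72 for 4 keratin and intelectin probe sets, so by these markers the LE pieces were not endoderm alone. The background ceiling was set by the brightest Bacillus control on each array and lay between 2.10 and 2.77, and 61.1% to 82.0% of tested probe sets exceeded it on an array. The hybridisation spikes had medians of 8.99 to 9.73 on 10 of the arrays, 9.91 on PNP 3 and 10.1 on LE 3.

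Most of the respiratory chain was measured above background, and most of its group means differed less than 2-fold. On all 12 arrays 68 of the 73 members exceeded the ceiling. The 5 others, sdha.S, sdhd.S, cox4i2.L, cox5b.2.L and atp5pd.L, did so on some arrays. The range of the 4 group means had a median of 0.52 over the members and 0.54 over all tested probe sets. It stayed under 1, a 2-fold change, for 62 members and passed 2 for sdhb alone, at 3.97. In the limma F test over the 4 groups, at an adjusted p under 0.05 over all 15491 probe sets, 17 of the 73 members differed, against a background of 39.9% of all tested probe sets. Those 17 were 2 of 26 for complex I, 2 of 4 for complex II, 4 of 16 for complex IV, 7 of 18 for complex V, cycs and ndufaf7.

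Each array's median deviation of the members from their own 12-array means showed how far the chain moved as a block. It was highest on PNP 1, at 0.31, and lowest on whole embryo 1, at -0.19, and lay between -0.12 and 0.12 on the 10 other arrays. Over all tested probe sets the same median stayed between -0.06 and 0.03. The spread of members within a group had a median SD of 0.27, against 0.22 for all tested. PNP held the highest group mean for 31 members, EF for 18, LE for 17 and the whole embryo for 7. Over all tested probe sets these shares were 31.9%, 30.2%, 24.9% and 13%.

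**Figure D1:**
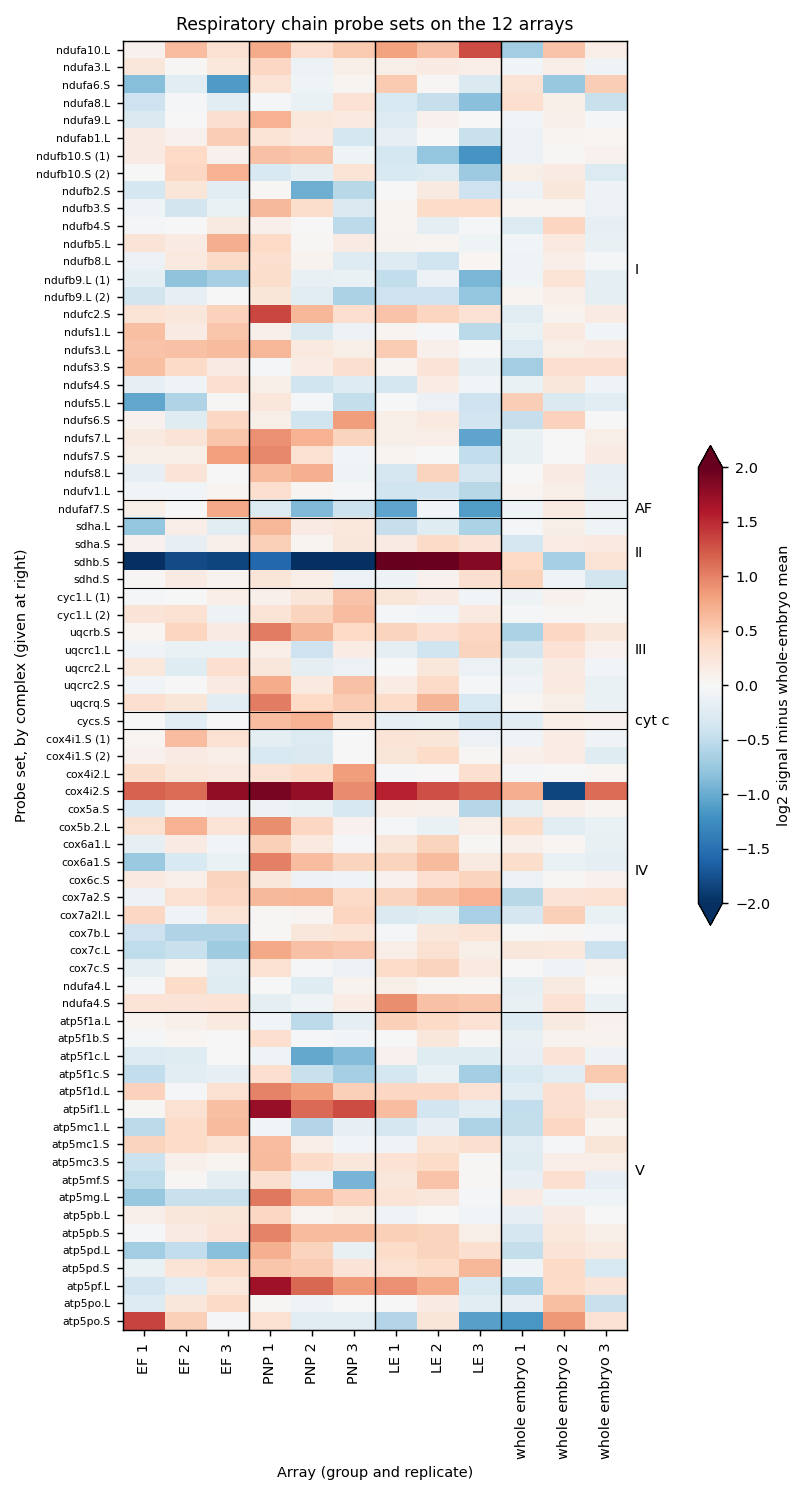
Each row is a respiratory chain probe set (complexes I to V, AF the assembly factor ndufaf7, cyt c cycs) and each column an array; colour gives the log2 signal minus the whole-embryo mean of that probe set, limited to 2 in either direction. Most rows are pale, sdhb.S is blue in EF and PNP and red in LE, and cox4i2.S is dark blue on whole embryo 2.

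Against whole embryos, the question was which members each region carried above or below the average of all tissues. In EF 1 member was higher (background 8.83%) and 4 were lower (background 10.6%), by limma at an adjusted p under 0.05. The median difference of the members was 0.09, beside 0.10 for all tested. The riser was ndufs3.L and the fallers were sdhb.S, cox7c.L, cox7b.L and atp5mg.L. Leaving out EF 1, EF 2, EF 3, LE 2, whole embryo 1 or whole embryo 2 removed the riser's call, and leaving out EF 1, EF 2, EF 3, LE 1, LE 2 or PNP 2 brought the fallers from 4 to 2.

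In PNP 12 members were higher than in whole embryos (background 10.2%) and 1, sdhb.S, was lower (background 12.1%). The risers were 5 probe sets of complex V (atp5if1.L, atp5pf.L, atp5f1d.L, atp5pb.S and atp5mg.L), 3 of complex IV (cox6a1.S, cox7c.L and cox4i2.L), 2 of complex III (uqcrc2.S and cyc1.L), cycs.S and, of complex I, ndufc2.S. The median difference of the members was 0.17 and that of all tested 0.07. The count of risers was 6 without PNP 1 and also 6 without whole embryo 1, the arrays with the highest and lowest chain medians. The methods' t-test called 0 higher and 0 lower, with 12 higher and 1 lower at an unadjusted p under 0.05, and a fit of these 2 groups alone called 6 higher. The count depended on scaling as well. With each array centred on its median, 22 members rose, while the median of all tested probe sets moved to 0.22 and that of the members to 0.32. That scaling called 21.8% of all tested probe sets higher and 9.92% lower in PNP. In EF it called 13.5% higher and 9.71% lower, with a median of all tested of 0.18, and in LE 6.67% higher and 4.34% lower, with a median of 0.14.

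LE had the fewest members called against whole embryos, and also the smallest shares of all tested probe sets called in either direction. By limma 2 members were higher, sdhb.S and ndufa4.S (background 3.23%), and 0 were lower (background 5.40%), with 8 higher and 6 lower at an unadjusted p under 0.05 and 0 by the methods' t-test. At that unadjusted threshold EF had 4 higher and 7 lower, so the order of EF and LE depended on the threshold. The median difference was 0.06, beside 0.04 for all tested. Without LE 1, whole embryo 1 or whole embryo 3 the ndufa4.S call was lost and 1 riser was left.

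Between the regions, the question was whether the chain differed among dissected tissues when these were set against each other directly. EF carried 10 members lower than PNP (background 9.73%) and 0 higher (background 13.8%) by limma, with 5 higher at an unadjusted p under 0.05 and 0 by the methods' t-test. Of the 10, 5 were of complex V (atp5pf.L, atp5mg.L, atp5if1.L, atp5pd.L and atp5pb.S), 3 of complex IV (cox7c.L, cox6a1.S and cox7b.L), 1 of complex II (sdha.L) and 1 was cycs.S. Complex I, with 26 probe sets, and complex III, with 7, supplied no member of this group, and their median differences were -0.07 and -0.29. The median difference was -0.09, beside 0.01 for all tested. The count was 6 without EF 1 and 6 without PNP 1.

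Against LE, EF had 5 members higher (background 14.1%) and 7 lower (background 10.7%). The 5 higher were ndufs1.L, ndufv1.L, both probe sets of ndufb10.S and the assembly factor ndufaf7.S. The 7 lower were sdhb.S, atp5pd.L, atp5mg.L and 4 of complex IV (cox6a1.S, cox7c.L, cox7c.S and cox7b.L). The higher count was 1 without EF 3, 1 without LE 3, 3 without LE 1, and 1 when LE 3 and PNP 3, the arrays with the brightest spikes, were both left out. The median difference was -0.01, beside 0.03 for all tested.

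PNP had 7 members higher than LE (background 13.0%) and 3 lower (background 12.6%). The 7 were ndufb10.S, ndufs7.L, ndufv1.L, sdha.L, cycs.S, atp5if1.L and atp5mg.L, and the 3 were sdhb.S, ndufa4.S and atp5f1a.L. The members' median difference was 0.18, beside 0.02 for all tested. In every called comparison of a member, in all 6 contrasts, the arrays of both groups did not overlap. Calls with 3 arrays a group select for such separation, so it adds no support. The groups also did not overlap in comparisons that were not called, such as ndufab1.L between EF and whole embryos (adjusted p = 0.378, limma). The share over all tested probe sets was not computed. The 6 contrasts share groups of arrays, so their counts are not independent of each other. Recomputed calls numbered 51, all the member calls described here except cox7c.S between EF and LE (adjusted p = 0.0316, limma). Fits of 2 groups alone lost 13 of the 51. These were ndufc2.S, cyc1.L, uqcrc2.S, cycs.S, cox4i2.L, cox6a1.S and cox7c.L in PNP against whole embryos, cox7c.L in EF and ndufa4.S in LE against whole embryos, ndufs1.L between EF and LE, sdha.L between EF and PNP, and ndufs7.L and atp5mg.L between PNP and LE.

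**Figure D2:**
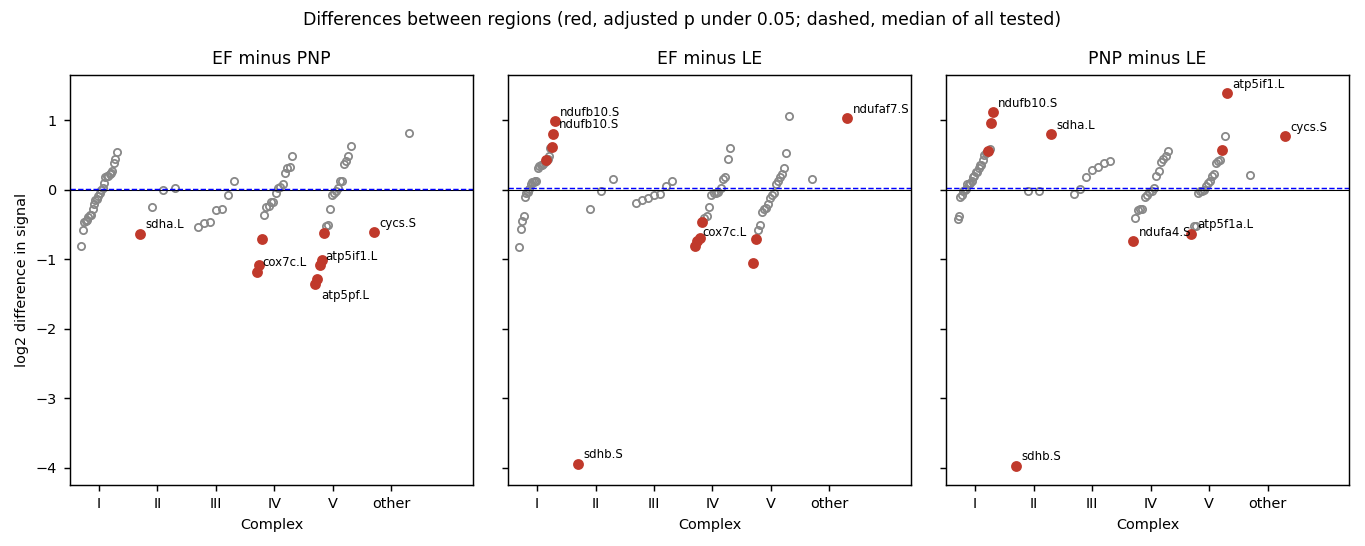
Each point is a respiratory chain probe set, placed by complex (other: ndufaf7.S and cycs.S) and by its log2 difference between a pair of regions (3 arrays each); red points passed an adjusted p under 0.05 (limma), and the dashed line is the median of all tested probe sets. The EF minus PNP panel has all 10 red points below 0, and sdhb.S lies near -4 in both comparisons with LE.

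Complex II, succinate dehydrogenase, held the member that differed most. sdhb.S encodes the iron-sulfur subunit, which hands electrons from the flavoprotein on to ubiquinone. Its log2 signal was 4.24, 4.82 and 4.78 in EF, 5.04, 4.55 and 4.18 in PNP, 8.63, 8.59 and 8.44 in LE, and the whole embryos had 7.01, 5.94 and 6.89. All LE arrays lay above the whole embryos and all EF and PNP arrays below them. LE was 15.4-fold above EF (adjusted p = 9.34e-07, limma) and 15.6-fold above PNP (adjusted p = 4.41e-07). Whole embryos were 4-fold above EF (adjusted p = 0.000334) and 4.07-fold above PNP (adjusted p = 0.000243), and LE was 3.85-fold above whole embryos (adjusted p = 0.00121). EF and PNP differed by 0.03 ± 0.28 (SE, adjusted p = 0.966). The 5 calls held with any single array left out, with a highest adjusted p of 0.00813. Both comparisons with LE also passed the methods' t-test, an unmoderated test that lost 40 of the 51 recomputed calls. The calls against whole embryos did not pass it.

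For sdha.L, the flavoprotein that oxidises succinate, the arrays read 5.50, 6.40 and 6.04 in EF, 6.94, 6.43 and 6.48 in PNP, 5.81, 6.02 and 5.64 in LE, and the whole embryos had 6.25, 6.38 and 6.18. PNP was the highest region and did not overlap with the others. PNP exceeded LE by 0.80 ± 0.21 (adjusted p = 0.0156), a call lost without LE 3 or PNP 1. EF was below PNP by 0.63 (adjusted p = 0.0494), a call lost with the replicate block and without any array other than EF 2. The second copy, sdha.S, and the membrane anchor sdhd.S were near the background ceiling, with group means of 2.57 to 2.84 and 2.76 to 2.86, and passed no test. The sdhc anchor was not analysed here, sdhb had a single probe set, and the difference between sdhb and the other subunits was not tested.

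Markers of other cell types also separated LE and whole embryos from EF and PNP. Summed epidermal markers were 8.64 to 9.11 in EF, 4.54 to 5.04 in PNP, 12.45 to 12.72 in LE, and the whole embryos had 12.37 to 12.51. Summed ionocyte markers, 5 probe sets for genes such as foxi1 and the proton pump subunit atp6v1b1, were 4.42 to 4.98 in EF, 4.71 to 4.94 in PNP, 9.50 to 9.64 in LE, and the whole embryos had 8.70 to 9.60. The endoderm markers given above moved the same way between regions. In LE against whole embryos, 2 of 5 ionocyte, 1 of 8 endoderm and 0 of 4 epidermal probe sets were called higher (background 3.23%). On each list 0 were lower (background 5.40%). The part of these cell types in the sdhb result was not tested. In bulk tissue fewer cells of a type and less RNA per cell cannot be told apart.

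**Figure D3:**
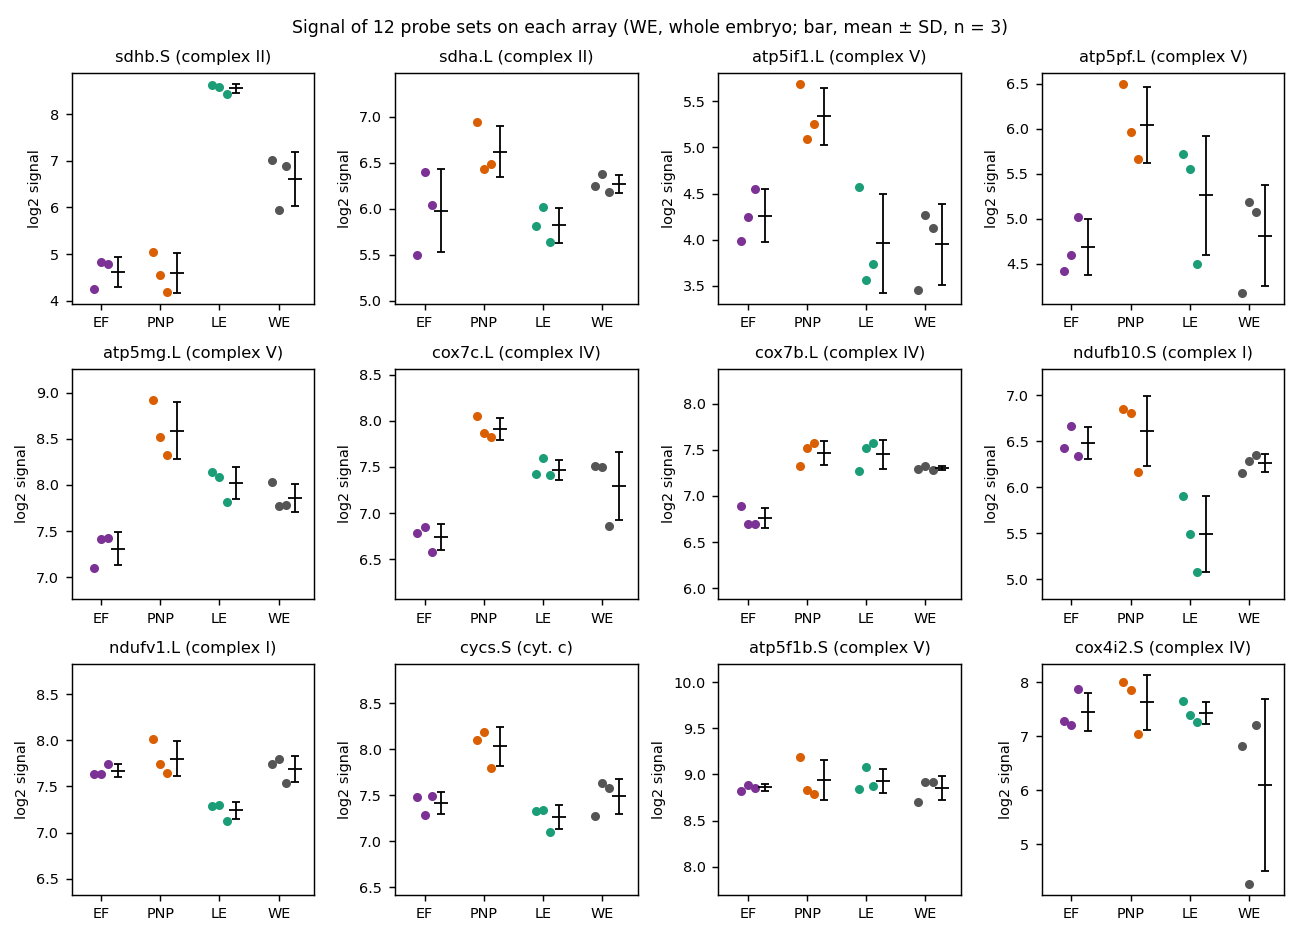
Dots give the log2 signal of 12 respiratory chain probe sets on each array, by group (last group, whole embryo), and the bar beside them the mean ± SD of 3 arrays; each panel has its own vertical scale (for ndufb10.S, the probe set of higher signal). The LE arrays of sdhb.S lie at 8.44 to 8.63 and those of EF and PNP at 5.04 or below, while atp5f1b.S stays between 8.70 and 9.19 on all arrays.

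Complex I, the NADH dehydrogenase, was the largest group. Against whole embryos its median differences were 0.12 for EF, 0.13 for PNP and -0.08 for LE. Its 26 probe sets included 4 higher in EF than in LE (15.4%), with both of ndufb10.S among them, and 3 higher in PNP than in LE (11.5%). These shares were near the 14.1% and 13.0% of all tested probe sets. In both contrasts 0 were lower (backgrounds 10.7% and 12.6%), and 19 and 20 of the 26 differences were positive. ndufb10.S, an accessory subunit of the membrane arm, read 6.43, 6.66 and 6.34 in EF, 6.85, 6.81 and 6.17 in PNP, 5.91, 5.49 and 5.08 in LE, and the whole embryos had 6.15, 6.28 and 6.35. Every LE array lay below every other array. EF exceeded LE by 0.99 ± 0.22 (adjusted p = 0.00551) and PNP exceeded LE by 1.12 ± 0.22 (adjusted p = 0.00227), both calls kept with any single array left out. LE was below whole embryos by 0.76, which missed the threshold (adjusted p = 0.0511).

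A second, dimmer probe set of ndufb10.S had means of 4.11 in EF, 3.66 in PNP, 3.30 in LE, and the whole embryos had 3.74. It was called between EF and LE as well (0.81 ± 0.22, adjusted p = 0.0168), a call lost without EF 3 or LE 3, and not between PNP and LE (0.36 ± 0.22, adjusted p = 0.272). Both probe sets thus had their lowest mean in LE.

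ndufv1.L, the core subunit that binds NADH and flavin mononucleotide, read 7.63, 7.63 and 7.74 in EF, 8.02, 7.74 and 7.65 in PNP, 7.29, 7.30 and 7.13 in LE, and the whole embryos had 7.74, 7.80 and 7.54. LE was again below all other arrays, by a smaller step. The difference was 0.56 ± 0.13 between PNP and LE (adjusted p = 0.00689) and 0.43 ± 0.13 between EF and LE (adjusted p = 0.0314). The latter was lost without any of the EF or LE arrays, at an adjusted p of up to 0.109, and with quantile normalization.

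Further subunits, 3 core and 1 accessory, were called in a single contrast each. ndufs1.L, the large iron-sulfur subunit, read 7.43, 6.99 and 7.38 in EF and 6.88, 6.79 and 6.29 in LE, a difference of 0.62 ± 0.19 (adjusted p = 0.0295) that was lost without EF 1, EF 3 or LE 3. ndufs7.L, the iron-sulfur subunit next to the quinone site, read 6.88, 6.65 and 6.41 in PNP and 6.08, 6.09 and 4.90 in LE, a difference of 0.96 ± 0.27 (adjusted p = 0.0203) lost without PNP 1 or PNP 2. Its lowest array, LE 3, stood 1 log2 unit or more under the other LE arrays. ndufs3.L, a core subunit of the matrix arm, read 5.41, 5.43 and 5.48 in EF and 4.57, 4.95 and 5.0 in whole embryos, a difference of 0.60 ± 0.18 (adjusted p = 0.0387) lost without any of 6 single arrays and with a replicate block. ndufc2.S, an accessory subunit of the membrane arm, read 7.75, 7.08 and 6.76 in PNP and 6.20, 6.49 and 6.58 in whole embryos, a difference of 0.77 ± 0.21 (adjusted p = 0.0212) lost without PNP 1 or whole embryo 1. The groups of these probe sets did not overlap in the contrasts named.

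Other core or long-studied subunits of complex I passed no test. ndufs8.L, an iron-sulfur core subunit, had means of 5.12 in EF, 5.50 in PNP, 5.01 in LE, and the whole embryos had 5.08. The matrix-arm subunit ndufa9.L had means of 7.16, 7.51, 7.08 and 7.15 in the same order, and the membrane-arm subunit ndufb8.L 3.88, 3.78, 3.52 and 3.73. ndufs7.S, the second copy of ndufs7, had means of 5.62, 5.67, 5.13 and 5.27, and ndufs3.S of 3.89, 3.66, 3.55 and 3.51. Their groups had SDs of 0.08 to 0.59.

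ndufaf7.S, a methyltransferase that helps assemble complex I, read 5.16, 5.03 and 5.80 in EF, 4.76, 4.16 and 4.61 in PNP, 3.98, 4.98 and 3.92 in LE, and the whole embryos had 4.95, 5.22 and 4.94. EF arrays lay above those of PNP and LE. The EF excess over LE was 1.03 ± 0.28 (adjusted p = 0.0185), lost without EF 3, LE 1 or LE 3, and that over PNP was 0.82 ± 0.28 (adjusted p = 0.0553).

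Complex III, the cytochrome bc1 complex, had adjusted p values of 0.0798 to 0.971 in the F test over its 7 probe sets, and its calls came from a single contrast, PNP against whole embryos. There 2 of the 7 were called higher (28.6%, background 10.2%) and 0 lower (background 12.1%). The median difference was 0.44, against 0.13 to 0.21 for the other complexes, with cyc1 and uqcrc2 each counted by 2 probe sets. Outside the rule, probe sets that carried several symbols differed in this contrast by -0.28 for uqcrfs1 and 0.02 for uqcrc2, and were not called. uqcrc2.S, core protein 2, read 3.56, 3.01 and 3.40 in PNP and 2.75, 3.01 and 2.69 in whole embryos (difference 0.50 ± 0.17, adjusted p = 0.0478), with the groups meeting at 3.01. The dimmer of the probe sets for cyc1.L, the heme protein cytochrome c1, read 3.91, 4.08 and 4.26 in PNP and 3.60, 3.67 and 3.67 in whole embryos (difference 0.44 ± 0.14, adjusted p = 0.0462). Both calls were close to the threshold and were lost with the replicate block, with the filter on dim probe sets and with most single arrays left out, at adjusted p values of up to 0.156 and 0.136. The brighter cyc1.L probe set, with means of 5.06 in EF, 5.32 in PNP, 5.14 in LE, and the whole embryos had 5.02, passed no test, nor did uqcrc1.L, uqcrc2.L, uqcrb.S or uqcrq.S. For the accessory subunits uqcrb.S and uqcrq.S the PNP difference from whole embryos was 0.69 (adjusted p = 0.0613) and 0.64 (adjusted p = 0.083).

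cycs.S, cytochrome c, which ferries electrons from complex III to IV and in animals also takes part in apoptosis, was higher in PNP than in each other group. Its arrays read 8.10, 8.19 and 7.80 in PNP, 7.48, 7.28 and 7.49 in EF, 7.33, 7.34 and 7.10 in LE, and the whole embryos had 7.27, 7.63 and 7.58. No array outside PNP reached the lowest PNP array. PNP exceeded LE by 0.77 ± 0.15 (adjusted p = 0.00194), EF by 0.61 ± 0.15 (adjusted p = 0.00945) and whole embryos by 0.54 ± 0.15 (adjusted p = 0.0211). The last call was lost without PNP 1, PNP 2 or whole embryo 1, at an adjusted p of up to 0.0806, and the other calls held with any single array left out.

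Complex IV, cytochrome c oxidase, had 4 of 16 probe sets past the F test (background 39.9%). In EF, 3 were called lower than in PNP (background 9.73%), 4 than in LE (background 10.7%) and 2 than in whole embryos (background 10.6%). None was called higher in EF. These calls were of cox7c.L, cox7c.S, cox7b.L and cox6a1.S. Against whole embryos the complex as a whole was not low in EF, with a median difference of 0.17 and 10 of 16 positive. That median was also 0.17 in PNP and 0.20 in LE. Between regions it was -0.11 for EF minus PNP, with 7 of 16 positive, and -0.06 for EF minus LE, with 5 of 16 positive. cox7c.L, subunit 7C, read 6.78, 6.85 and 6.58 in EF, 8.05, 7.87 and 7.83 in PNP, 7.42, 7.60 and 7.41 in LE, and the whole embryos had 7.51, 7.50 and 6.86. EF was the lowest group and PNP the highest, with no overlap between the regions. PNP was 2.26-fold above EF (difference 1.18 ± 0.17, adjusted p = 0.00031) and LE 1.67-fold above EF (adjusted p = 0.00742). Against whole embryos EF was lower by 0.55 (adjusted p = 0.0427) and PNP higher by 0.63 (adjusted p = 0.0209). The EF call was lost without any of 9 single arrays and with median centring, and the PNP call without PNP 1 or whole embryo 3.

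cox7b.L, subunit 7B, gave the tightest values. It read 6.89, 6.70 and 6.70 in EF, against 7.32, 7.52 and 7.57 in PNP, 7.27, 7.52 and 7.57 in LE, and the whole embryos had 7.29, 7.33 and 7.28. Only EF stood apart. It was lower than PNP by 0.71 ± 0.13 (adjusted p = 0.00133), than LE by 0.69 ± 0.13 (adjusted p = 0.00148) and than whole embryos by 0.54 ± 0.13 (adjusted p = 0.01), and these calls held under every alternative tried.

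cox6a1.S, subunit 6A, read 5.08, 5.52 and 5.69 in EF, 6.82, 6.43 and 6.27 in PNP, 6.26, 6.46 and 6.0 in LE, and the whole embryos had 6.17, 5.68 and 5.62. EF was again the lowest region. It was lower than PNP by 1.08 ± 0.21 (adjusted p = 0.00264) and than LE by 0.81 ± 0.21 (adjusted p = 0.0142, lost without EF 1 or LE 2). PNP exceeded whole embryos by 0.68 ± 0.21 (adjusted p = 0.0369), a call lost without LE 1, PNP 1, PNP 2, whole embryo 2 or whole embryo 3 and with the replicate block.

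ndufa4.S, named for complex I and found in complex IV, had its highest mean in LE. It read 5.96, 5.94 and 5.97 in EF, 5.48, 5.59 and 5.83 in PNP, 6.61, 6.27 and 6.23 in LE, and the whole embryos had 5.53, 5.97 and 5.55. LE was above all other arrays. It exceeded PNP by 0.74 ± 0.16 (adjusted p = 0.00398) and whole embryos by 0.69 ± 0.16 (adjusted p = 0.0191, lost without LE 1, whole embryo 1 or whole embryo 3).

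The remaining members of complex IV gave few calls. cox4i2, the subunit 4 isoform linked to low oxygen in mammals, was seen by 2 probe sets. For cox4i2.S the arrays read 7.28, 7.21 and 7.87 in EF, 8.0, 7.85 and 7.05 in PNP and 7.65, 7.39 and 7.26 in LE, and 6.82, 4.26 and 7.21 in whole embryos. Whole embryo 2 stood far under the rest. The region differences of 1.36, 1.54 and 1.34 from whole embryos, with an SE of 0.58, were not called (adjusted p = 0.129, 0.078 and 0.176). cox4i2.L exceeded the ceiling on 1 EF, 3 PNP, 1 LE and 2 whole-embryo arrays. Its PNP arrays of 2.49, 2.56 and 3.04 were called above the whole-embryo arrays of 2.17, 2.19 and 2.24 (difference 0.50 ± 0.16, adjusted p = 0.0399), a call lost with quantile normalization and without any of 7 single arrays. The common isoform cox4i1.S had means of 6.23 in EF, 5.75 in PNP, 6.04 in LE, and the whole embryos had 5.91 on the first of its probe sets and passed no test on either. cox5a.S, the subunit 5A, stayed within 0.18 of whole embryos in each region (SE 0.18), and cox7a2.S had means of 6.62, 6.98, 6.99 and 6.41.

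Complex V, the ATP synthase, had called members in the head, the stalks and the membrane part and for the inhibitor. Of its 18 probe sets, 5 were lower in EF than in PNP (27.8%, background 9.73%) and 0 higher (background 13.8%). In PNP against whole embryos 5 were higher (27.8%, background 10.2%) and 0 lower (background 12.1%). The median deviation of the complex V probe sets from their 12-array means was 0.40 on PNP 1, -0.31 on EF 1 and -0.36 on whole embryo 1. On the other arrays of these groups it lay between -0.04 and 0.05, so as a block complex V differed only on the arrays numbered 1. atp5if1.L, which blocks the enzyme from running backwards, read 5.69, 5.09 and 5.25 in PNP, 3.98, 4.25 and 4.55 in EF, 4.57, 3.56 and 3.74 in LE, and the whole embryos had 3.45, 4.27 and 4.13. PNP lay above all other arrays. PNP was 2.62-fold above whole embryos (difference 1.39 ± 0.29, adjusted p = 0.00426), 2.61-fold above LE (adjusted p = 0.00329) and 2.11-fold above EF (adjusted p = 0.0164). The last call was lost without EF 1 or PNP 1, at an adjusted p of up to 0.0685.

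atp5mg.L, the membrane subunit g, joined a low EF to a high PNP. It read 7.10, 7.41 and 7.42 in EF, 8.92, 8.52 and 8.32 in PNP, 8.14, 8.09 and 7.82 in LE, and the whole embryos had 8.03, 7.77 and 7.78. All EF arrays lay below, and all PNP arrays above, every array of LE and the whole embryo. PNP was 2.42-fold above EF (difference 1.28 ± 0.17, adjusted p = 0.000151), a call kept under every alternative tried. EF was below LE by 0.71 (adjusted p = 0.00892) and below whole embryos by 0.55 (adjusted p = 0.0409), and PNP was above whole embryos by 0.73 (adjusted p = 0.00917) and above LE by 0.57 (adjusted p = 0.0276). The difference of EF from whole embryos was lost without any of 9 single arrays and with median centring, and that of PNP from LE without LE 2, LE 3, PNP 1 or PNP 2.

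The peripheral stalk, which holds the catalytic head still, had 7 probe sets. Of these 3 were called higher in PNP than in EF (background 9.73%). The other 4 were not called in any contrast, and their EF minus PNP differences were -0.01 for atp5pb.L, -0.27 for atp5pd.S, 0.13 for atp5po.L and 0.63 for atp5po.S. atp5pf.L, coupling factor 6, read 6.50, 5.96 and 5.66 in PNP, 4.42, 4.59 and 5.02 in EF, 5.72, 5.55 and 4.50 in LE, and the whole embryos had 4.17, 5.18 and 5.07. PNP arrays lay above those of EF and the whole embryo and overlapped with LE. PNP exceeded EF by 1.36 ± 0.35 (adjusted p = 0.0128, lost without EF 1 or PNP 1) and whole embryos by 1.24 ± 0.35 (adjusted p = 0.0235, lost without PNP 1, PNP 2 or whole embryo 1).

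atp5pb.S, subunit b, read 7.63, 7.27 and 7.28 in PNP, against 6.62, 6.81 and 6.89 in EF and 6.31, 6.85 and 6.75 in whole embryos. PNP was above both. The excess was 0.75 ± 0.17 over whole embryos (adjusted p = 0.0076) and 0.62 ± 0.17 over EF (adjusted p = 0.0202, lost without EF 1 or PNP 1). atp5pd.L, subunit d, read 2.57, 2.77 and 2.42 in EF, 2 of 3 arrays above the ceiling, 3.97, 3.71 and 3.11 in PNP and 3.63, 3.70 and 3.58 in LE. EF was below both regions, by 1.01 ± 0.23 for PNP (adjusted p = 0.00643) and 1.05 ± 0.23 for LE (adjusted p = 0.00485).

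In the catalytic head, a single subunit was called. atp5f1b.S, the catalytic beta subunit, had differences of at most 0.09 between any groups (SE 0.14) and read between 8.70 and 9.19 on every array. The alpha subunit atp5f1a.L read 8.35, 7.89 and 8.23 in PNP and 8.88, 8.79 and 8.70 in LE, so PNP was lower by 0.63 ± 0.15 (adjusted p = 0.00862), opposite to the direction of the 2 complex V members that PNP held above LE. In the central stalk, atp5f1d.L read 7.87, 7.72 and 7.35 in PNP and 6.66, 7.22 and 6.77 in whole embryos, a difference of 0.77 ± 0.19 (adjusted p = 0.0107). The gamma subunit, atp5f1c.L and atp5f1c.S, and the c-ring members atp5mc1.L, atp5mc1.S and atp5mc3.S were not called in any contrast.

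Other tissues differed along with the contrast of PNP and EF. Summed muscle markers, 9 probe sets, were 9.96 to 10.29 in PNP, 6.51 to 7.27 in EF, 5.76 to 5.86 in LE, and the whole embryos had 9.44 to 10.33. Summed notochord markers, 5 probe sets, were 9.74 to 9.88 in PNP, 6.15 to 7.40 in EF, 4.94 to 5.26 in LE, and the whole embryos had 6.21 to 6.62. In PNP against whole embryos, 2 of the 9 muscle probe sets were called higher and 3 lower. For notochord, 5 of the 5 were called higher (backgrounds 10.2% higher and 12.1% lower). The part of either tissue in the PNP values was not tested.

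The allotetraploid X. laevis has copies of many genes on its L and S chromosome sets, and 17 genes here had several probe sets, 13 of them for both copies. Over the 6 contrasts this gave 102 gene and contrast pairs, and all probe sets of the gene moved in the same direction in 76. A probe set was called in 22 pairs, in 20 of these with the same sign as its partner, and all probe sets of the gene were called in 2. In EF against PNP cox7c.L differed by -1.18 and cox7c.S by -0.18, cox6a1.S by -1.08 and cox6a1.L by -0.23, and atp5pd.L by -1.01 and atp5pd.S by -0.27. The called member of each pair was thus the L copy for cox7c and atp5pd and the S copy for cox6a1. The difference between copies was not tested, and probe sets for near-identical copies can share signal.

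**Figure D4:**
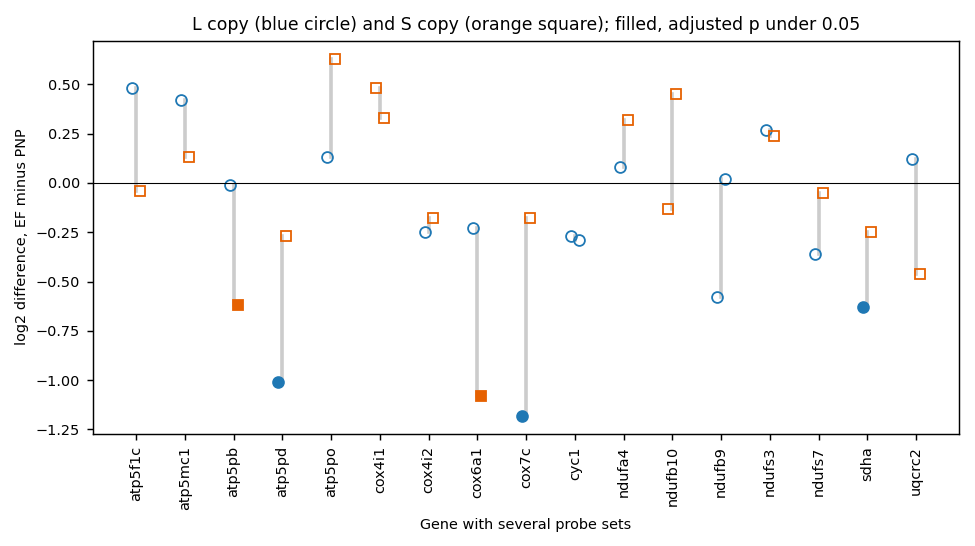
The log2 difference EF minus PNP is shown for each probe set of the 17 genes that had several (circle, L copy; square, S copy; filled, adjusted p under 0.05 by limma), with a grey bar joining the probe sets of a gene. Filled points appear for atp5pb, atp5pd, cox6a1, cox7c and sdha, each with its partner nearer 0.

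Genes that feed, build or serve the chain were counted in the same fit and are to be read against all tested probe sets. Of those, PNP against whole embryos called 10.2% up and 12.1% down (median 0.07), EF against whole embryos 8.83% up and 10.6% down (median 0.10), EF against PNP 13.8% up and 9.73% down (median 0.01), and PNP against LE 13.0% up and 12.6% down (median 0.02). Of 31 probe sets for the citric acid cycle, pyruvate dehydrogenase and its kinases, 5 passed the test between PNP and whole embryos, all higher in PNP. They included a dim probe set of the kinase pdk1.S, with means of 3.41 in PNP and 2.78 in whole embryos (adjusted p = 0.0359, limma). The other probe sets of pdk1.S were not called there (adjusted p = 0.141 and 0.158), nor was pdk1.L (adjusted p = 0.667). The median of the list was 0.19, and EF against PNP gave 3 in each direction (median -0.13). pdk4.S, the kinase that shuts off pyruvate dehydrogenase, ranged from 5.27 to 6.26 in EF, from 4.74 to 5.18 in PNP, from 3.10 to 3.45 in LE and from 4.05 to 5.05 in whole embryos. EF was 5.36-fold above LE (adjusted p = 3.45e-05). The other copy, pdk4.L, was dim, with means of 2.84 in EF and 2.58 in LE, and was not called between them (adjusted p = 0.424). Of 31 glycolysis probe sets, 7 were called up and 3 down in PNP against whole embryos (median 0.18), 2 up and 5 down in EF (median -0.02), and 9 up and 2 down in PNP against LE (median 0.20). These counts include repeated probe sets of a gene. Several of tpi1.S were called up in PNP in both contrasts, and both of slc2a1.L against LE. The PNP calls against whole embryos also included a pfkp.S probe set near the ceiling, with means of 2.28 and 1.84. hk2.L, a hexokinase above the ceiling on 2 of 3 arrays in EF and in PNP, was 4.39-fold lower than whole embryos in both EF (adjusted p = 4.42e-05) and PNP (adjusted p = 2.94e-05), and pfkm.S, a phosphofructokinase, was 4.95-fold above PNP in EF (adjusted p = 0.000213).

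Among 22 probe sets of assembly factors, 1 was called up and 2 down in EF (median 0.03), and 3 up and 1 down in PNP (median 0.09), against whole embryos. acad9.S, an assembly factor of complex I, ranged from 6.53 to 6.71 in EF and from 6.59 to 7.20 in PNP, against 5.33 to 5.73 in LE, and the whole embryos had 5.11 to 5.88. EF exceeded LE 2.14-fold (adjusted p = 0.00167). higd1a.L, a hypoxia-induced factor of complex IV, ranged from 8.55 to 8.97 in LE and from 7.73 to 9.14 in whole embryos, and from 5.93 to 6.74 in EF and PNP. LE exceeded EF 5.17-fold (adjusted p = 0.000126). Of 41 probe sets for mitochondrial ribosome proteins, 5 were called up in PNP (median 0.15) and 2 in EF (median 0.14) against whole embryos, and PNP against LE gave 7 up and 2 down (median 0.00).

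Of 40 probe sets for carriers, pores and import, 2 were called up and 3 down in EF (median 0.16), and 2 each way in PNP (median 0.09), against whole embryos. The largest difference was in vdac1.S, the outer membrane pore, which ranged from 3.90 to 4.99 in EF, from 8.39 to 8.45 in PNP, from 6.98 to 7.26 in LE and from 6.71 to 7.05 in whole embryos on the first of its probe sets. PNP was 17.3-fold above EF there (adjusted p = 1.06e-07) and 1.78-fold above EF on the second probe set (adjusted p = 0.0298). slc25a1.L, the citrate carrier, ranged from 4.01 to 4.60 in EF, from 3.20 to 3.62 in PNP, from 6.98 to 7.20 in LE and from 6.54 to 6.97 in whole embryos, 5.68-fold lower in EF (adjusted p = 1.4e-06) and 10.5-fold lower in PNP (adjusted p = 4.5e-08) than in whole embryos. Like sdhb.S it was low in EF and PNP. Its lowest LE array, 6.98, lay just above its highest whole-embryo array, 6.97, and unlike for sdhb.S the difference of LE from whole embryos was not called.

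Regulators of mitochondrial gene expression, 16 probe sets, gave 4 calls up and 1 down in EF (median 0.36, beside 8.83% up, 10.6% down and a median of 0.10 for all tested), and 1 each way in PNP (median 0.08), against whole embryos. The EF risers included nrf1.S, a transcription factor for respiratory chain genes in mammals, at 5.88 to 6.98 in EF against 5.13 to 5.65 in whole embryos (2.14-fold, adjusted p = 0.0142). The faller, the nuclear receptor esrra.L, did not exceed the background ceiling on any EF or PNP array. Whole embryos were at least 3.85-fold above EF (adjusted p = 0.000374) and at least 3.66-fold above PNP (adjusted p = 0.00061), with the ceiling of each array as the bound where the signal was lower.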

How the data were processed

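The deposited table held, per the authors' methods, RMA-normalized probe set intensities from GeneSpring GX, whose values were used here as deposited linear intensity and taken to log2. Of 15611 probe sets, 120 Affymetrix controls were left out. Gene symbols came from the platform annotation. Of the tested probe sets 9304 had 1 symbol, 195 several and 5992 none. All 73 members matched the RefSeq gene table, and no coordinates are given because the files name no genome build. limma 3.58.1 in R 4.3.3 fitted the 4 groups over all 12 arrays (lmFit, eBayes), with Benjamini-Hochberg adjustment over 15491 probe sets and a threshold of 0.05 without a fold limit. The scripts were tested on simulated data. RMA scales the probe intensities of arrays to 1 distribution and so removes differences in total RNA. The probe set values still differed in level, with medians of all tested from 3.09 on PNP 2 to 3.38 on whole embryo 2. The number of arrays (3 a group) limits precision. Members and gene lists were chosen with earlier results of these data known. Named members were the 6 called with the largest change each way against whole embryos, the 3 each way between regions, a list of core subunits and isoforms, and genes with probe sets called in opposite directions, plus uqcrb.S, uqcrq.S, cox7c.S, atp5pd.S and the genes of related pathways, all picked with their values in view. The other settings tried were a block for replicate number, separate fits of each pair of groups, the t-test of the methods, quantile normalization, median centring, a filter on dim probe sets and leaving out arrays. Leaving out PNP 3 and LE 3 together was chosen after seeing the data.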

Additional observations from a re-analysis of the deposited data

Results flagged for a closer look

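Probe sets of 3 genes were called in opposite directions against whole embryos in a pair of regions (limma, adjusted over all tested probe sets). The direct difference between those regions follows from these opposite differences in the same fit, so its call is no separate support. sdhb.S was lower than whole embryos in EF and PNP and higher in LE. Its log2 difference was -3.94 for EF minus LE (adjusted p = 9.34e-07) and -3.97 for PNP minus LE (adjusted p = 4.41e-07), with 3 of 3 LE arrays above all EF and PNP arrays. cox7c.L was lower in EF and higher in PNP, with a log2 difference of -1.18 for EF minus PNP (adjusted p = 0.00031). atp5mg.L had the same order, with a log2 difference of -1.28 (adjusted p = 0.000151). For cox7c.L and atp5mg.L the EF call against whole embryos was lost without any of 9 single arrays and with median centring. Groups of 3 arrays are too small for the test of single outlying samples, which was not run.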

How the results depend on the processing

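The 51 named calls left out that of cox7c.S between EF and LE. Of 969 recomputed values for the 51, 788 stayed past the threshold, 181 kept their direction and lost the call, and 0 reversed. With any one array left out 27 of the 51 calls held. The counts below are of respiratory chain probe sets called against whole embryos or between regions. Leaving out single arrays gave 0 to 2 higher and 2 to 5 lower in EF than whole embryos, 6 to 14 higher and 1 to 3 lower in PNP than whole embryos, 1 to 3 higher and 0 to 2 lower in LE than whole embryos, 0 to 2 higher and 6 to 13 lower in EF than PNP, and 1 to 6 higher in EF than LE. PNP below whole embryos rose from 1 to 3 without PNP 1. LE below whole embryos became 1 without LE 1, LE 2, PNP 1 or whole embryo 3 and 2 without PNP 3, and EF above PNP became 1 without EF 1, LE 2 or PNP 1 and 2 without EF 2 or LE 3. The methods' t-test, adjusted over all probe sets, called 0 higher and 1 lower in EF than whole embryos, 0 and 0 in PNP, 0 higher in LE, 3 lower in EF than PNP, 1 higher and 4 lower in EF than LE, and 1 higher and 1 lower in PNP than LE. At an unadjusted p under 0.05 that test gave 12 higher and 1 lower in PNP than whole embryos. Fits of 2 groups only called 6 higher in PNP than whole embryos, 1 higher in LE than whole embryos and 1 higher in EF than PNP. Median centring called 2 higher and 2 lower in EF than whole embryos, 22 higher in PNP than whole embryos and 28 by the F test, and quantile normalization 2 higher in EF than whole embryos. The filter on dim probe sets called 2 lower in PNP than whole embryos, 1 lower in LE than whole embryos and 1 higher in EF than PNP. Leaving out PNP 3 and LE 3 together, chosen after seeing the data, called 1 higher in EF than PNP and 1 higher in EF than LE. Same-numbered arrays of different groups had correlations of -0.172 to 0.208, the highest for LE 3 and PNP 3, and arrays of different number -0.223 to 0.133. A pairing of arrays by replicate number was thus neither shown nor excluded. The replicate block gave 0 higher in EF than whole embryos, 1 lower in LE than whole embryos and 10 higher in PNP than whole embryos, and lost 5 named calls. The causes of these changes were not tested. Probe sets near the background ceiling limit what can be said of sdha.S, sdhd.S, cox4i2.L, cox5b.2.L and atp5pd.L.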

Other observations

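Besides the members, 5 probe sets carried several symbols that included ndufs7, sdhd, atp5mc1, uqcrfs1 or uqcrc2, and stood outside the rule for that reason. No contrast of these was called. The uqcrfs1 probe set, for the Rieske iron-sulfur protein of complex III, averaged 8.32 for EF, 8.61 for PNP, 8.60 for LE and 8.89 for the whole embryos, and EF was below whole embryos by 0.57 (adjusted p = 0.0831, limma).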
